A study of Ambystoma mexicanum with 61 samples.

Results

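The kidney of the neotenic axolotl (*Ambystoma mexicanum*, d/d strain, adults of 1 year) was compared with the other neotenic tissues to describe the genes enriched in it. The comparison held the 2 libraries labelled neotenic kidney and 30 libraries from 16 other neotenic tissues, out of 61 bulk RNA-seq libraries in the whole series. The 2 neotenic libraries labelled stomach Batch2 and tail Batch2 were left out by rule, so that stomach and tail each had 1 library and the other 14 tissues had 2. A neotenic axolotl is an untreated adult that keeps its larval body with external gills. The metamorphosed animals of the same strain, used only at the end of this section, had been driven through metamorphosis with the thyroid hormone thyroxine (T4) in their water. By the study's methods the bulk RNA of each state came from 2 animals, which were perfused through the heart with phosphate-buffered saline before dissection. The labels number the libraries as Batch1 and Batch2 and do not say outright that a batch is an animal. P-values therefore measure the spread between these libraries of one strain.

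The kidney of a salamander is a mesonephros. Blood is filtered in renal corpuscles, whose podocytes hold back protein, and part of the nephrons also open to the body cavity through ciliated funnels, the nephrostomes, that lead into a ciliated neck. The proximal tubule takes up filtered protein, sugars, amino acids and anions, the diluting segment removes salt without water, and the collecting duct adjusts sodium, acid and water. Amphibian kidneys also carry, on or in their surface, interrenal cells that make steroid hormones and chromaffin cells that make catecholamines. In mammals these last cells form the adrenal gland. The libraries measure RNA of a whole tissue, so fewer cells of a type and less RNA per cell cannot be told apart.

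The kidney libraries held 4848013 and 5065518 counts assigned to genes, and the other neotenic libraries 2888466 to 16895107, with a median of 8058214. A level is given as CPM, the share of a library's counts on the usual scale, adjusted by edgeR's TMM factors. In the kidney libraries 3 counts, taken as the floor, corresponded to 0.511 and 0.478 CPM. Over the 19827 genes tested, the Pearson correlation between the kidney libraries on log2(CPM + 1) was 0.979, and the nearest library of another tissue was the second lung library, with 0.872 and 0.870. Between stomach 1 and stomach 2, and between tail 1 and tail 2, the correlation was 0.831 and 0.853, and both left-out libraries were nearer to another tissue, stomach 2 to hind limb 2 (0.977) and tail 2 to stomach 1 (0.966). Including these 2, 10 of the 34 neotenic libraries were nearer to another tissue than to their own, and only these 2 were left out. The gonad libraries had the lowest correlation with each other, 0.693, and were kept. Of the genes tested, 895 (4.51%) were more than 2-fold apart between the kidney libraries on the same scale.

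Of 12 genes listed as defining kidney tubule and corpuscle, 11 had a gene model, and 10 of these were enriched and lay above every other library in both kidney libraries. The exception was *Umod*, which encodes uromodulin, in mammals the protein of the thick ascending limb and the most abundant one in urine. *Umod* was at 6.30 and 2.55 CPM in kidney and at 20.7 and 32.9 CPM in skin, and its log2 fold change was 0.03. A second model with this symbol held 1.19 and 0.956 CPM in kidney and was also higher in skin, at a mean of 7.47 CPM. No defining marker was absent from the kidney libraries, and the label was kept.

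Each gene was tested by edgeR's quasi-likelihood test for the difference between kidney and the 16 other tissues, whose log2 levels were averaged with each tissue counting once. This log2 fold change is an average over tissues and is large where most tissues are near 0, even if 1 tissue exceeds kidney. A gene was called enriched where its Benjamini-Hochberg adjusted p was below 0.05 and kidney exceeded that mean by 2 or more on the log2 scale, and depleted at -2 or less. Of the 19827 genes, 1448 (7.3%) were enriched and 177 (0.893%) depleted. Over all tested genes the median was -0.01. Within the first batch 1429 of the 1448 enriched genes were higher in kidney than in the other tissues averaged, and within the second 1434, while 778 differed by at least 2 on the log2 scale in each batch. The direction within a batch is largely fixed by choosing the genes on these same libraries. At a threshold of 4 in place of 2, 503 genes were enriched. With stomach 2 and tail 2 put back there were 1360 enriched and 111 depleted genes, and without gonad 1555 and 373.

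A stricter reading asked where both kidney libraries exceeded every one of the 30 other libraries. This held for 334 genes (1.68% of those tested), 295 of them enriched. Among the 1448 enriched genes, kidney had the highest tissue mean for 434 (30.0%) and was in the next 2 places for 759. The enriched genes took 20.9% and 22.6% of the counts of tested genes in the kidney libraries, and 1.32% to 20.1% in the others, with the highest share in the second intestine library. The 295 genes above every other library took 7.98% and 9.41% in kidney against 0.317% to 1.03% elsewhere. The enriched set thus held many genes shared with 1 or 2 other tissues and a smaller group led by kidney.

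Among the enriched genes with a symbol, a mean of at least 10 CPM in kidney and both kidney libraries above every other library, the 20 with the largest log2 fold changes included the endocytic receptor *Lrp2*, several solute carriers and the transcription factors *Pax2*, *Emx1* and *Lim-1*. That the groups do not overlap for these genes is part of how they were chosen. *Kcnj1*, the apical potassium channel of the diluting segment (ROMK in mammals), stood at 84.2 and 92.3 CPM. It had 1074 counts in the 2 kidney libraries and 3 counts in the 30 others, a ratio of 7516 after scaling with a 95% counting interval of 2565 to 36500. Its adjusted p was 1.96e-07 by edgeR and 0.193 by DESeq2, so this call was lost with the second tool. A second, shorter model of *Kcnj1* was at 19.2 and 28.7 CPM in kidney, with 2 counts elsewhere.

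The gene with the highest level for its length was named *Angiogenin-2* in the annotation, a name used for a secreted ribonuclease. It was at 2687 and 3767 CPM in kidney, with a median over the other tissues of 0.962 and a highest other library, brain, of 3.54 CPM. The log2 fold change was 11.51 ± 0.48 (SE) with an adjusted p of 4.53e-13. *Miox*, myo-inositol oxygenase of the proximal tubule, was at 444 and 530 CPM against a median of 0.333 and a highest other library of 1.01. Its log2 fold change was 10.91 ± 0.27, with an adjusted p of 2.52e-16. *Slc34a1*, the sodium-phosphate cotransporter of the proximal tubule, was at 109 and 163 CPM against at most 0.395 elsewhere, and 28 of the 30 other libraries were at or below 3 counts. *Slco1a2*, an organic anion transporter, was at 266 and 255 CPM and at most 2.03 elsewhere. *Tmem52b* was at 164 and 264 CPM, and all 30 other libraries were at or below the floor.

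**Figure D1:**
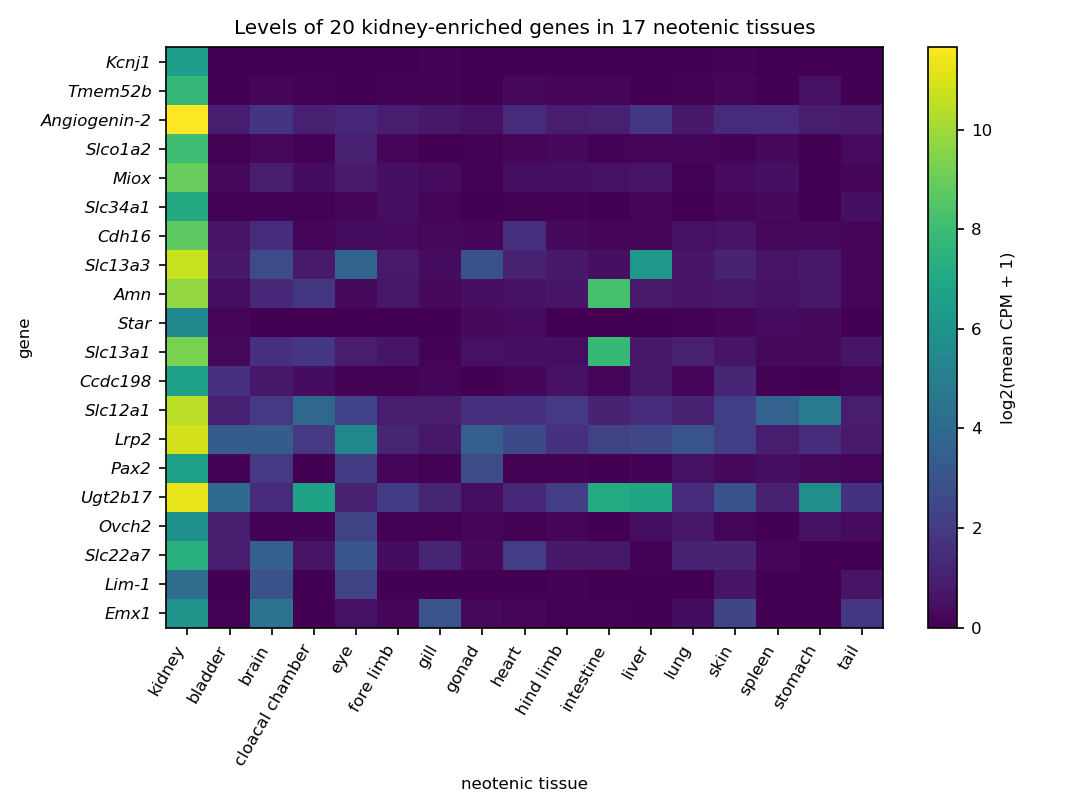
Heat map of the 20 genes with the largest kidney log2 fold changes (y) in 17 neotenic tissues (x), coloured by log2(mean CPM + 1) over the libraries of a tissue. By the choice of genes the kidney column is the brightest. The brightest cells outside it are intestine for *Amn* and *Slc13a1*, followed by intestine, liver and cloacal chamber for *Ugt2b17* and liver for *Slc13a3*.

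*Lrp2* encodes megalin, the large receptor by which proximal tubule cells take up filtered protein. Its model lies on scaffold AMEXG_0030004259 from 2436255 to 2963755 on the plus strand, with 80 exons. It was at 1634 and 2122 CPM in kidney, with a median of 3.66 over the other tissues and at most 47.2, in an eye library. The log2 fold change was 9.05 ± 0.42 with an adjusted p of 1.92e-12. *Slc12a1*, the sodium-potassium-chloride cotransporter (NKCC2) of the diluting segment, has 27 exons on scaffold AMEXG_0030001390 from 2606366 to 2851545 on the minus strand. It was at 1052 and 1743 CPM in kidney against a median of 2.09 and at most 28.1, in stomach, with a log2 fold change of 9.06 ± 0.24 and an adjusted p of 2.85e-16. These genes mark segments that lie one after the other along the nephron, and their kidney means were 43.9 and 49.7 times the mean of the next tissue.

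Some of the 20 had a clear second tissue. *Amn*, amnionless, which anchors the vitamin B12 receptor cubilin, was at 877 and 837 CPM in kidney and at 335 and 284 in intestine. *Slc13a1*, a sodium-sulfate cotransporter, was at 626 and 635 CPM and at 323 and 129 in intestine. *Slc13a3*, a dicarboxylate transporter, was at 1613 and 1649 CPM with liver next at 99.7 and 48.4. Liver and intestine return below as second tissues of whole gene lists. Among regulators, *Pax2* was at 85.3 and 114 CPM with gonad next at 6.34 and 4.70, *Emx1* at 64.3 and 69.7 with brain next at 21.2 and 19.9, and *Lim-1* (*Lhx1*) at 17.9 and 16.6 with brain next at 8.18 and 5.03. All 3 factors act in kidney formation in vertebrate embryos. *Cdh16*, the kidney cadherin, was at 376 and 498 CPM against at most 2.18. *Ugt2b17*, a glucuronosyltransferase, was at 2337 and 2397 CPM, with intestine next at 121 and 157.

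Per kilobase of gene model, which allows levels of different genes to be compared, the gene with the highest mean kidney level was *Angiogenin-2*, at 2445 CPM per kb, among enriched genes whose kidney libraries exceeded all others. *Ugt2b17* was at 769, *Slc13a3* at 592, *Amn* at 518, *Ndrg1* at 464 and *Hsd17b10* at 447 CPM per kb. *Slc12a1* had 331, *Cox4i2* 324 and *Slc4a4* 310 CPM per kb. These are transporters, enzymes and *Ndrg1*, and for some of them a second tissue came close to kidney. *Ndrg1*, a stress-responsive gene, was at 1393 and 1726 CPM in kidney and at 1183 and 1059 in cloacal chamber. *Slc4a4*, the sodium-bicarbonate cotransporter that returns bicarbonate to the blood, was at 1157 and 1744 CPM with intestine next at 554 and 922.

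The gene lists below follow the nephron from the corpuscle to the duct. For each list the members with a tested gene model were counted, to be read against 7.3% of all genes enriched, 1.68% above every other library and a median log2 fold change of -0.01.

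**Figure D2:**
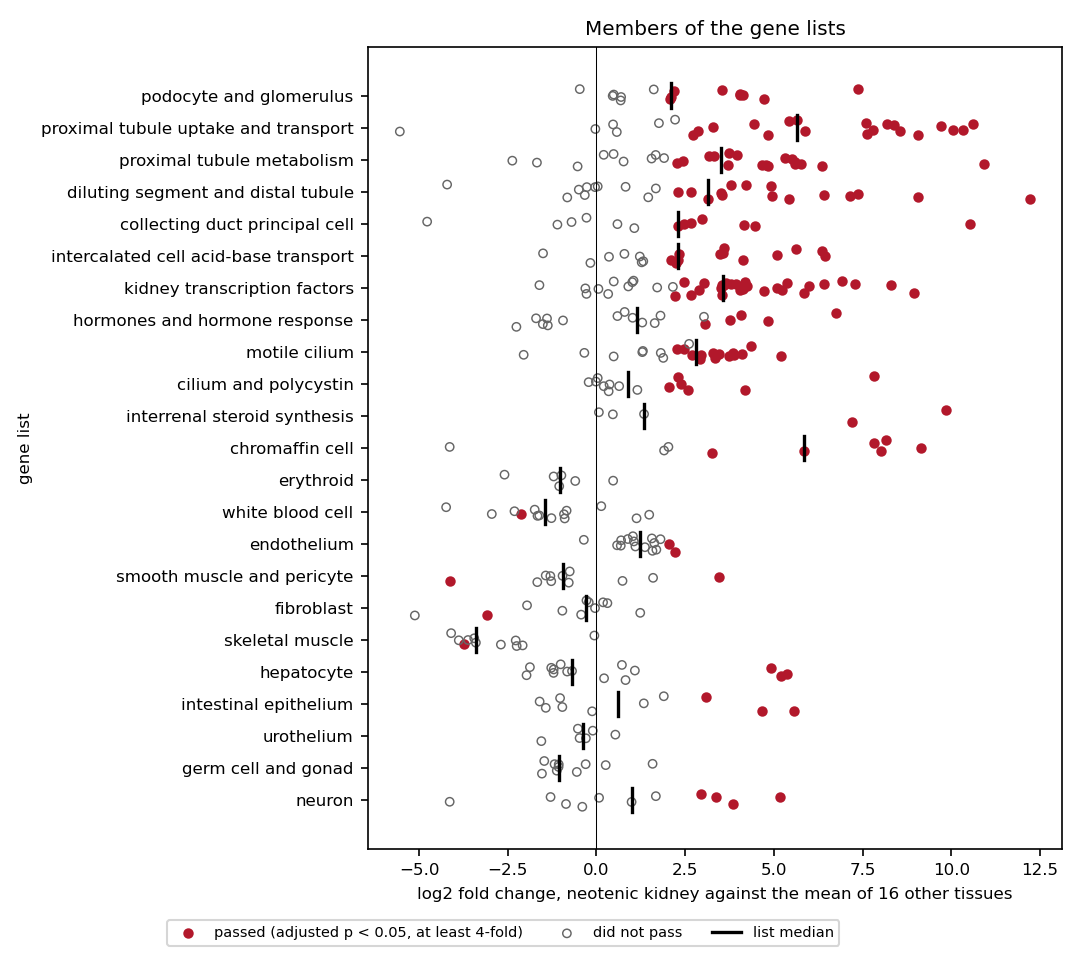
Log2 fold change of neotenic kidney against the mean of the 16 other tissues (x) for each tested member of 23 gene lists (y). Filled points passed the test, open points did not, and bars mark list medians, which are 5.65 for proximal uptake and 5.86 for chromaffin genes.

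Podocyte and glomerulus genes were enriched for 9 of 15 tested members, with a median log2 fold change of 2.09. Above every other library lay 2 tested members. *Nphs1*, nephrin of the slit diaphragm, was at only 7.15 and 4.30 CPM in kidney and at or below the floor in 28 of 30 other libraries, gonad being next at 2.24 and 0. Its log2 fold change was 7.37, with an adjusted p of 1.99e-04 by edgeR and 0.509 by DESeq2. *Ptpro*, a podocyte phosphatase also used by neurons, was at 71.0 and 65.7 CPM and higher in brain, at 200 and 153. *Lmx1b*, a podocyte transcription factor, was at 17.5 and 18.0 CPM and had a log2 fold change of 4.04. *Clic5* was enriched by edgeR and had an adjusted p of 0.0602 by DESeq2.

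The proximal tubule uptake list had 19 of 25 tested members enriched, 10 of them above every other library, and a median of 5.65. Its endocytic members form one machinery. *Cubn*, cubilin, which binds vitamin B12 with its carrier and works with megalin, was at 489 and 561 CPM in kidney and at 87.0 and 103 in intestine. *Dab2*, the adaptor that links megalin to clathrin, was at 418 and 493 CPM with spleen next at 102 and 176, and its log2 fold change was 2.87. Of the carriers, *Slc3a1*, the heavy chain of the cystine transporter, was at 42.2 and 63.0 CPM and higher in intestine, at 142 and 190. *Slc23a1*, a vitamin C transporter, was at 208 and 198 CPM and had a log2 fold change of 7.59. *Slc13a2*, a citrate carrier, was at 90.0 and 90.2 CPM in kidney and at 1076 and 1122 in intestine. Intestine was the next tissue for 12 of the 19 enriched members. The summed level of the list was 8918 and 10060 CPM in kidney, against a median of 840 in the other libraries and at most 10240, in the second intestine library. Of the tested members that were not enriched, *Slc47a1*, an organic cation exporter, had a log2 fold change of -5.54 that did not pass the test.

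Proximal tubule metabolism had 17 of 26 tested members enriched, 4 above every other library, and a median of 3.51. Liver was the next tissue for 11 of the 17. *Acy1*, aminoacylase, was at 1412 and 1582 CPM in kidney and at 367 and 250 in liver. *Hpd*, an enzyme of tyrosine breakdown, was enriched with a log2 fold change of 6.36 but stood at 128 and 105 CPM against 1283 and 1956 in liver. *G6pc*, the last enzyme of glucose release, was at 30.1 and 34.3 CPM against 469 and 297 in liver. *Pck1*, the first committed enzyme of glucose synthesis, was at 40.2 and 19.4 CPM and at 2749 and 3861 in cloacal chamber. The summed level was 4323 and 4546 CPM in kidney and reached 22340 in a liver library. *Miox* was the member with the highest fold and no such second tissue.

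The diluting segment and distal tubule list had 15 of 25 tested members enriched, 9 above every other library, and a median of 3.16, which is the same with *Kcnj1* at its floored value of 7.83. Beside *Slc12a1* and *Kcnj1*, the basolateral potassium channel subunits *Kcnj10* and *Kcnj16* were enriched. *Kcnj16* was at 281 and 332 CPM in kidney against at most 36.8 elsewhere. *Cldn19*, a tight junction protein for magnesium and calcium, was at 28.9 and 31.1 CPM against 1.97 in tail, the next tissue. *Casr*, the calcium-sensing receptor, was at 47.7 and 42.2 CPM with brain next at 9.29 and 16.3. *Calb1*, a calcium-binding protein of the distal tubule, was at 847 and 1175 CPM in kidney but at 10020 and 11900 in cloacal chamber. The summed level of the list was 4919 and 6473 CPM in kidney and reached 12830 in a cloacal chamber library. *Sim1*, a transcription factor, was at 9.87 and 13.2 CPM with brain next at 0.663 and 1.84. The calcium channel *Trpv5* was not enriched, at 19.2 and 13.4 CPM against 181 and 131 in gill.

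Collecting duct principal cell genes were enriched for 7 of 13 tested members, with a median of 2.31, and bladder was the next tissue for 4 of the 7. Only 1 tested member lay above every other library. The summed level of the list was 3284 and 3650 CPM in kidney and reached 8218 in a cloacal chamber library. The sodium channel subunits *Scnn1b* and *Scnn1g* had log2 fold changes of 4.17 and 4.48. *Scnn1b* was at 60.1 and 88.9 CPM in kidney and at 245 and 225 in cloacal chamber. *Tfcp2l1*, a factor of collecting duct cells, was at 1368 and 1547 CPM in kidney and at 2821 and 1767 in bladder. Cloacal chamber was next for 2 of the 7 and heart for 1, which was *Cdh16*. *Hsd11b2* and *Gata3* were enriched in the fit with both kidney libraries, *Hsd11b2* was not without either one and *Gata3* was not without the second. *Aqp4*, a basolateral water channel, was at 0.681 and 0.159 CPM in kidney and at 901 and 572 in lung, and its log2 fold change of -4.77 had an adjusted p of 0.0545.

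Intercalated cells secrete acid or base through a proton pump (V-ATPase) and its exchangers. Of 19 tested members of this list 12 were enriched and 3 lay above every other library, with a median of 2.29. Bladder was the next tissue for 7 of the 12. *Foxi1*, the factor that specifies these cells, was at 19.1 and 27.6 CPM in kidney and at 38.6 and 45.3 in bladder. *Rhcg*, an ammonia channel, was at 357 and 529 CPM in kidney, at 1144 and 498 in bladder and at a median of 3.62 over the other tissues. *Slc26a4*, pendrin, a chloride-bicarbonate exchanger, was at 83.4 and 103 CPM in kidney and at 250 and 111 in gill. Taking all 17 tested genes whose symbols begin with *Atp6*, 5 were enriched, and bladder was next for all 5. The 5 include the tissue-restricted forms *Atp6v1b1*, *Atp6v0a4* and *Atp6v0d2*, and also *Atp6v1c2*, with a log2 fold change of 3.48. *Atp6v1b1* was at 126 and 200 CPM in kidney and at 56.9 and 39.9 in bladder, with a log2 fold change of 6.44 ± 0.30 and an adjusted p of 4.59e-12. *Atp6v0d2* was at 384 and 435 CPM with 128 in each bladder library. The broadly used subunits *Atp6v1b2* and *Atp6v0d1* had log2 fold changes of -0.62 and -0.80 and did not pass. *Atp6v1e1* and *Atp6ap2* had positive log2 fold changes of 1.27 and 0.79, below the threshold of 2, with adjusted p of 0.00131 and 0.0356 by edgeR. Over all 17 the median was 0.81, and 8 had an adjusted p below 0.05.

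Transcription factors of the kidney were enriched for 27 of 38 tested members, with a median of 3.56 and 8 above every other library. *Pax8*, which acts together with *Pax2* in the early kidney, was at 12.1 and 10.0 CPM with brain next at 1.33 and 2.51. *Sall3* was at 16.9 and 37.1 CPM and reached 52.5 in a heart library. The summed level of the list was 1974 and 2258 CPM in kidney and reached 3483 in a bladder library. Of 17 tested Hox genes, which record position along the body axis, 11 were enriched, 6 of them above every other library, with a median of 4.72. Cloacal chamber and tail were each next for 4 of the 11. *Hoxd10* was at 21.3 and 26.5 CPM with cloacal chamber next at 10.3 and 9.70. *Hoxa9* was at 20.4 and 16.9 CPM with bladder next at 12.5 and 10.6. The enriched Hox genes ran from *Hoxd1* and *Hoxa3* to *Hoxa11* and *Hoxc11*, while *Hoxa13* and *Hoxa4* had log2 fold changes of -2.40 and -5.79 that did not pass. *Hoxa7* was not enriched without the second kidney library.

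Hormones and hormone response genes were enriched for 5 of 18 tested members, with a median of 1.16, and 1 tested member lay above every other library. *Kl*, klotho, the co-receptor for the phosphate hormone FGF23, was at 47.8 and 73.2 CPM in kidney and at 70.7 and 70.3 in intestine, against a median of 0.383. *Ace*, angiotensin-converting enzyme, was at 96.2 and 109 CPM in kidney and at 7249 and 13450 in intestine. *Agtr1*, an angiotensin receptor, was at 15.3 and 14.3 CPM with heart next at 13.8 and 17.7. *Igfbp1*, which binds insulin-like growth factors, was also enriched, with a log2 fold change of 3.76.

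Genes of motile cilia were enriched for 14 of 22 tested members, with a median of 2.80, but none lay above every other library. *Foxj1*, the master factor of motile cilia, was at 3.57 and 6.85 CPM in kidney and at 14.3 and 3.90 in lung. *Dnah9*, a dynein arm, was at 30.5 and 24.5 CPM and at 152 and 56.5 in gill. The summed level of the list was 411 and 311 CPM in kidney and 1288 and 955 in gill, against a median of 117 over the other libraries and 2897 in the highest, a lung library. The stomach library, at 395 CPM, was between the kidney libraries, and kidney had rank 4 among the tissues. *Hydin* was not enriched without the first kidney library, and *Gmnc* not without the second. Among cilium and polycystin genes 6 of 14 were enriched and 2 lay above every other library, with a median of 0.90. *Pkhd1*, fibrocystin of the tubule's primary cilium, stood apart from the rest of that list at 16 and 15.3 CPM with cloacal chamber next at 1.24 and 2.31. The intraflagellar transport genes *Ift88* and *Ift140*, used by any cilium, had log2 fold changes of -0.22 and -0.02.

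Markers of both adrenal cell types were present in the kidney libraries. *Star*, which moves cholesterol into the mitochondrion for steroid synthesis, was at 52.4 and 31.9 CPM, with 23 counts in all 30 other libraries. Its model has 8 exons on scaffold AMEXG_0030002464 from 2190096 to 2206108 on the plus strand. The log2 fold change was 9.84 ± 0.73, with an adjusted p of 6.46e-07 by edgeR and 0.320 by DESeq2. *Hsd3b1*, a dehydrogenase of steroid synthesis, was at 9.53 and 17.4 CPM with gonad next at 2.24 and 2.55. These were the 2 enriched genes of 5 tested interrenal genes. *Fdxr*, ferredoxin reductase, had a log2 fold change of 1.34, and several steroid hydroxylases have no gene model of their name.

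The chromaffin list had 6 of 9 tested members enriched, 4 above every other library, and a median of 5.86. *Th*, the rate-limiting enzyme of catecholamine synthesis, was at 44.9 and 24.2 CPM with eye next at 9.90 and 8.90. *Dbh*, which makes noradrenaline, was at 80.5 and 74.4 CPM with gonad next at 0.746 and 6.29. *Pnmt*, which makes adrenaline, was at 11.6 and 7.65 CPM, with 116 counts in kidney and 2 in all other libraries, a scaled ratio of 1218 with a counting interval of 330 to 10170 and an adjusted p of 0.384 by DESeq2. These enzymes act in this order, and both kidney libraries exceeded all others for each. *Ddc*, the listed enzyme that acts between *Th* and *Dbh*, was not called enriched. Its log2 fold change was 1.905, below the threshold of 2, with an adjusted p of 0.00252 by edgeR. *Chgb*, a granule protein, was at 783 and 571 CPM in kidney and higher in brain, at 1532 and 1103. Of the neuron list 4 of 11 tested members were also enriched (*Elavl4*, *Gap43*, *Nefl* and *Nefm*). The summed level of that list was 256 and 253 CPM in kidney, against a median of 176 in the other libraries and 12100 in the highest. *Nefl* was at 67.9 and 62.3 CPM in kidney. The part of nerve tissue in the chromaffin values was not tested.

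Lists for other cell types gave few calls. No member was enriched among 6 erythroid, 14 white blood cell, 11 fibroblast, 11 skeletal muscle, 6 urothelium and 10 germ cell genes tested. The summed erythroid level was 103 and 122 CPM in kidney and reached 3690 in a spleen library, and germ cell genes summed to 0.851 and 2.55 CPM. Of 16 endothelial genes *Flt1* and *Stab1* were enriched, and neither remained without either kidney library. Of 11 smooth muscle and pericyte genes *Rgs5*, a pericyte marker, was enriched at 333 and 327 CPM, with lung next at 510 and 1053. *Des*, desmin of muscle, was depleted, at 9.02 and 20.7 CPM against 9866 and 10090 in heart. *Ptprc* of white blood cells, *Lum* of fibroblasts and *Ckm* of skeletal muscle were depleted in the fit with both kidney libraries and not without either one.

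Liver and gut lists had 3 enriched members each, and their levels are given because liver and intestine recur as next tissues. The hepatocyte list had *Apoa1*, *Apob* and *F2* enriched of 15 tested, with a median of -0.69. Its summed level was 2603 and 1877 CPM in kidney, a median of 127 in the other libraries and 199600 in the highest. *Apob*, the scaffold of secreted lipoproteins, made most of this sum, at 1963 and 1316 CPM. The intestinal epithelium list had *Vil1*, *Apoa4* and *Mttp* enriched of 10 tested. *Vil1*, villin of the brush border, was at 120 and 91.0 CPM in kidney against 2483 and 2430 in intestine. The summed level was 493 and 484 CPM in kidney, a median of 30.4 elsewhere and 108000 in the highest library. The part of liver or gut RNA in these values was not tested.

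**Figure D3:**
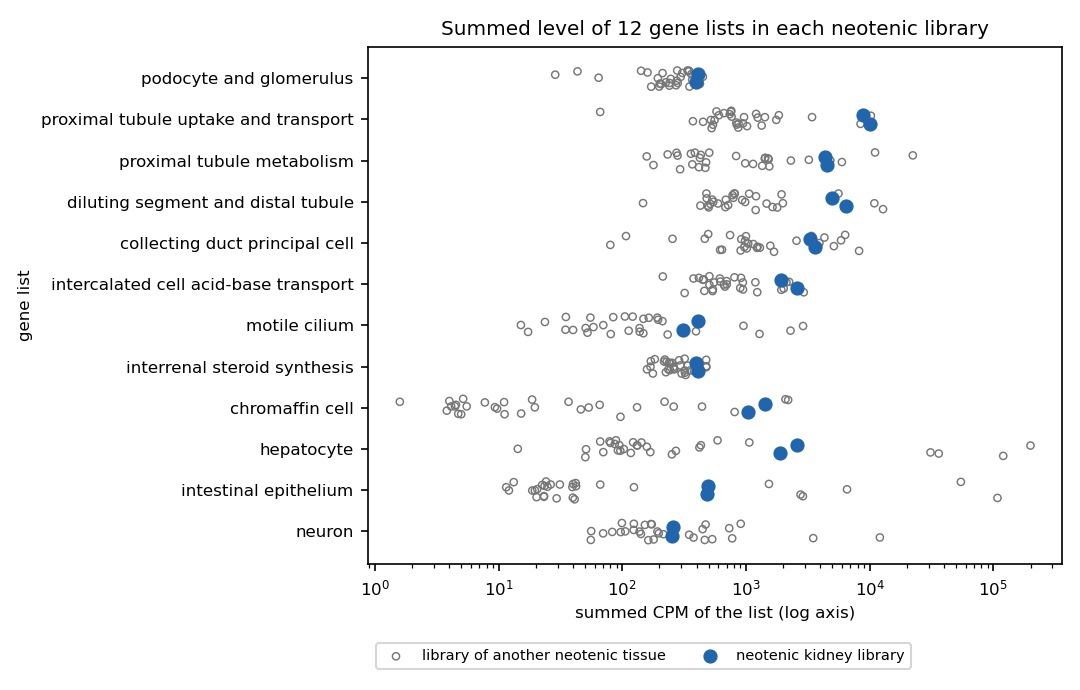
Summed CPM of 12 gene lists (log axis) in each neotenic library, with large points for the 2 kidney libraries and open points for the 30 others. Kidney is near the top for proximal uptake, with 8918 and 10060 CPM, while for motile cilium, hepatocyte and intestinal epithelium genes several other libraries are higher.

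Solute carriers were also counted by symbol prefix, which takes in some genes that are not carriers, such as *Slc9a3r1*. Of 244 tested genes with symbols beginning with *Slc*, 39 were enriched, 11 above every other library and 2 depleted, with a median of 0.13. Of the 39, 20 are also members of the lists above. Intestine was the next tissue for 14 of the 39. In all, 857 of the 1448 enriched genes carry a symbol.

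Depleted genes were few and mostly rested on low counts. Those with the lowest log2 fold changes, among depleted genes with a symbol and a mean of at least 10 CPM over the other tissues, included genes of the gut, connective tissue and surface epithelia. *Tm4sf20*, a membrane protein of gut epithelium, had 0 counts in both kidney libraries and 463 and 1329 CPM in intestine, at least 1755-fold lower in kidney with the floor of 3 counts set per library. *Thrombospondin-4*, a matrix protein of tendon and muscle, had 0 counts in both and 86.3 CPM in tail, at least 169-fold lower. *Dsg1*, desmoglein of surface epithelia, had 0 counts in both and 81.0 and 75.7 CPM in cloacal chamber, at least 153.5-fold lower. All 3 had at most the floor in 9 to 13 other libraries, so the kidney was not alone in lacking them. *Abi3bp*, a matrix protein, had 0 and 2 counts in kidney, with hind limb next at 57.6 and 21.2 CPM. A second model of *Thrombospondin-4* had 0 and 2 counts in kidney and a mean of 62.9 CPM in fore limb. Its log2 fold change of -2.95 did not pass. A second, shorter model of *Dsg1* had 0 counts in both kidney libraries and a mean of 3.2 CPM in cloacal chamber, and its -2.57 did not pass either.

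The calls of *Tm4sf20*, *Thrombospondin-4* and *Dsg1* were each lost without either kidney library, with adjusted p by edgeR of 0.163 and 0.197, of 0.210 and 0.252, and of 0.0652 and 0.0813. The call of *Abi3bp* was lost without the first library (0.0969) and held without the second (0.0254). Over all genes 33 to 59 were depleted when 1 kidney library was left out. Only 39 genes lay below every other library in both kidney libraries, 7 of them depleted.

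For each enriched gene the highest other tissue was recorded. Brain was that tissue for 280 of the 1448 genes, lung for 253, liver for 185 and intestine for 148. Gill followed with 97, bladder with 90, gonad with 79 and eye with 77. The pattern differed by list, as given above: intestine next for uptake genes, liver for metabolism, bladder for intercalated and collecting duct genes, and gill (7) or lung (6) for the 14 enriched motile cilium genes. Counting every tissue whose mean exceeded kidney, lung did so for 330 of the enriched genes, brain for 297, gill for 255, eye for 216, liver for 197 and intestine for 188. These counts are descriptions and were not tested. No such count is given over all genes tested, so the order of the tissues has no background here.

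**Figure D4:**
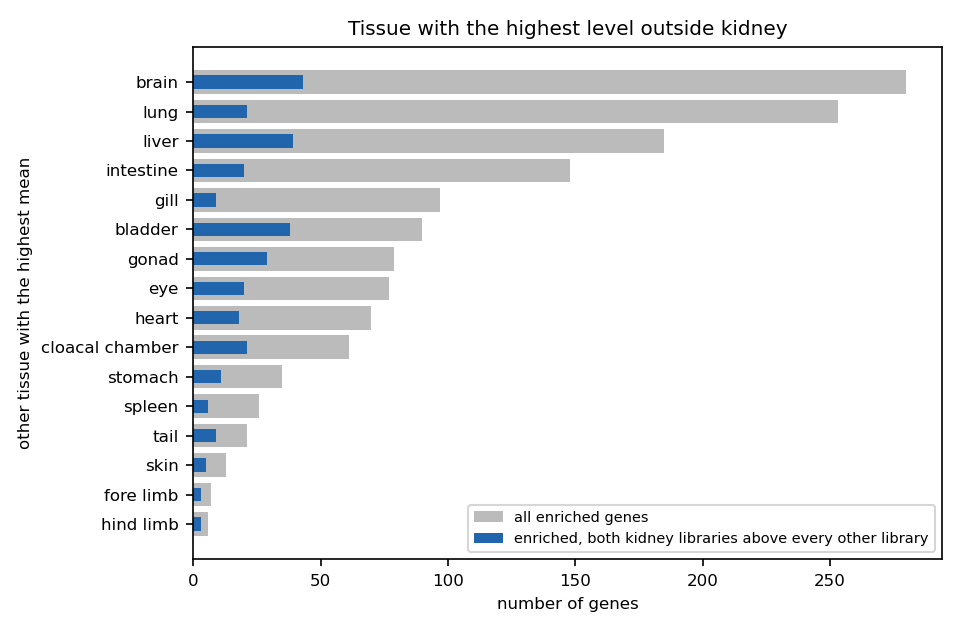
Number of kidney-enriched genes (x) for which each other neotenic tissue (y) had the highest mean outside kidney, for all 1448 enriched genes and for the 295 above every other library. Brain, lung, liver and intestine lead among all, with 280, 253, 185 and 148 genes.

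Kidney was then tested against single tissues that share its transport work. Against intestine 1209 genes were higher (6.1%) and 871 lower (4.39%) in kidney, against liver 1390 higher (7.01%) and 1076 lower (5.43%), and against gill 1044 higher (5.27%) and 1014 lower (5.11%). These comparisons share the kidney libraries. Leaving out 1 library of either tissue gave 606 to 848 higher and 406 to 645 lower against intestine, 765 to 992 and 481 to 831 against liver, and 477 to 715 and 382 to 702 against gill.

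Against intestine, 6 of the 25 uptake genes were higher in kidney and 4 lower. *Lrp2* was higher by 8.88 on the log2 scale, and *Cubn* by 2.46 with an adjusted p of 0.0204. *Amn* had a difference of 1.47 with an adjusted p of 0.0675, so 1 member of the receptor complex was not told apart from intestine. *Slc13a2* was lower by 3.61 with an adjusted p of 1.60e-03, and *Ace* was also lower, with a log2 difference of -6.65. Diluting segment genes were higher for 13 of 25 and lower for 1. Among these, *Slc12a1* differed by 10.18.

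Against liver, 4 of the 26 metabolism genes were higher in kidney and 6 lower. *Miox* was higher by 9.77. *Hpd* was lower, with a log2 difference of -3.80 and an adjusted p of 8.74e-04, and *Ass1*, a urea cycle enzyme, had a difference of -5.06. *Fah*, the last enzyme of tyrosine breakdown, had a difference of -0.58 with an adjusted p of 0.508. Transcription factors were higher in kidney for 27 of 38 and lower for none.

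Gill, like kidney, moves ions and acid across an epithelium with mitochondria-rich cells. Against gill, 3 of the 19 intercalated cell genes were higher in kidney and 1 lower, while 19 of 25 uptake genes were higher and 1 lower. *Foxi1* differed by 0.01 and *Rhcg* by -0.66, with adjusted p of 1.0 and 0.726, and *Slc26a4* by -0.95 with an adjusted p of 0.398. *Atp6v1b1* was higher in kidney by 2.42 with an adjusted p of 0.0108. The calcium channels *Trpv5* and *Trpv6* were lower in kidney, with differences of -3.26 and -5.79 and adjusted p of 1.59e-03 and 1.58e-04. None of the 22 motile cilium genes was higher than in gill and 2 were lower. The uptake list thus separated kidney from gill more often than the acid-base list did, in counts that were not tested against each other.

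Genes whose levels followed *Lrp2* most closely over the 17 neotenic tissue means were *Ovch2* (Pearson r on log2(CPM + 0.5) 0.922), *Pax2* (0.895), *Ripply1* (0.893), *Susd4* (0.887) and *Dbh* (0.884). The points share their libraries, and such correlations rest mostly on the kidney mean. Around *Umod* the nearest genes were *Upk1b* (0.876) and *Upk1a* (0.860), which encode uroplakins of the bladder surface, then *Tmem52* (0.831), *Slc2a10* (0.830) and *Sp6* (0.819).

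The metamorphosed kidney gave an independent measure of the same genes, in other animals. Its 2 libraries held 1737493 and 4808518 counts and were compared with the other 14 metamorphosed tissues, of which brain, fore limb and heart had 1 library. There 589 of 18916 genes (3.11%) were enriched. Of the 1448 genes enriched in neotenic kidney 1406 were tested, and 510 were enriched in both states, 36.3% of the neotenic genes tested and 87.0% of the 586 metamorphosed genes tested in the neotenic fit. A positive log2 fold change was found for 1339 (95.2%), against 46.5% of all genes tested in both. Their median was 2.03 in metamorphosed and 3.39 in neotenic kidney, where they had been chosen. Of the 285 tested genes that were enriched and led every other library of the neotenic fit, 213 were enriched here and 149 again lay above every other library. The share of all genes tested that lay above every other metamorphosed library was not counted, so the 149 has no background here.

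By list, 13 of 25 proximal uptake genes, 12 of 26 metabolism genes, 12 of 25 diluting segment genes and 18 of 37 transcription factors were enriched in metamorphosed kidney, against 3.11% of all genes tested there. Of 21 motile cilium genes 0 were enriched, which is near that share. *Lrp2* was at 2227 and 1161 CPM in metamorphosed kidney, with a log2 fold change of 6.50, and *Angiogenin-2* at 2756 and 4028 CPM, with 7.42. *Miox* was at 603 and 1921 CPM and *Star* at 19.9 and 152 CPM, so these varied more between the 2 metamorphosed kidneys than between the neotenic ones. *Tekt4*, a cilium protein, was at 7.39 and 17.6 CPM against 17.7 and 11 in neotenic kidney, with a metamorphosed log2 fold change of 0.47 that did not pass.

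Among the other metamorphosed libraries, the intestinal epithelium list summed to 4236 CPM in skin 2, 4042 in fore limb, 3858 in hind limb 2 and 2272 in bladder 2, against 168 in hind limb 1 and 50.7 in bladder 1. The library skin 1 held 69278 counts. The fore limb library was the next tissue for 68 of the 285 genes, *Lrp2* among them at 134 CPM. The 295 leading genes summed to 58340 and 60290 CPM in metamorphosed kidney, to 13680 in that fore limb library and to 17060 in bladder 2, the highest of the others. In neotenic kidney they summed to 65850 and 75910 CPM. The second batch held more of these genes in all 11 other metamorphosed tissues with both batches, with 4228 to 17060 CPM against 3280 to 10450 in the first, and in 3 of 14 other neotenic tissues. Within the first batch of metamorphosed libraries 1309 of the 1406 genes were higher in kidney than in those 11 tissues averaged, with a median log2 difference of 2.00, and within the second 1237, with 1.33. The part of this batch pattern in the comparison between the states was not tested. Without the 5 libraries 711 genes were enriched in metamorphosed kidney in place of 589.

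**Figure D5:**
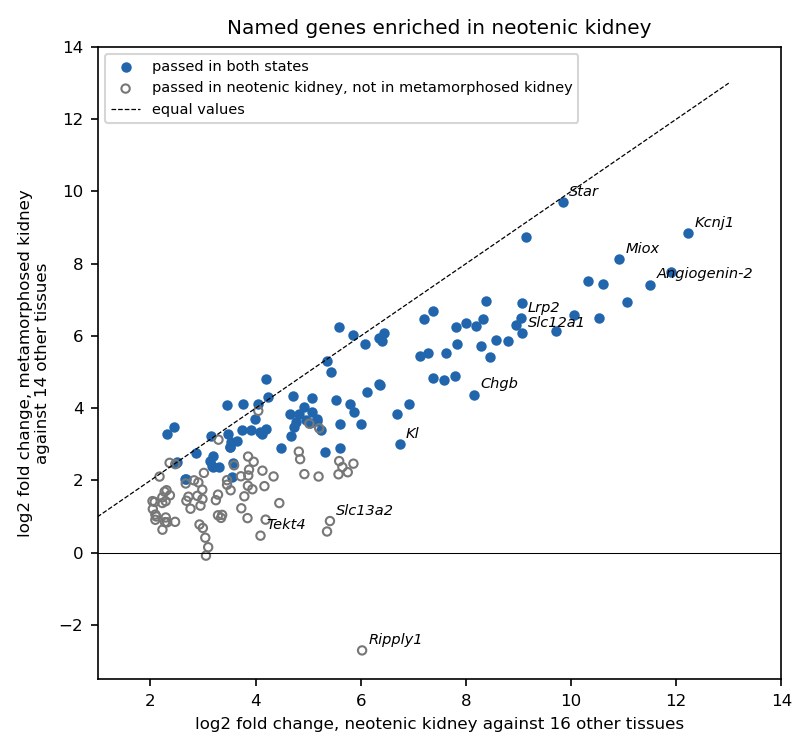
Log2 fold change of kidney against the other tissues in neotenic (x) and metamorphosed (y) axolotls for 179 named genes enriched in neotenic kidney, with the dashed line of equal values. Filled points are the 102 genes that passed in both states, and 166 of the 179 lie below the line. The genes were chosen by their x value, which by itself favours points below the line. The axes average 16 (x) and 14 (y) other tissues.

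A test of the difference itself, the kidney contrast in metamorphosed minus that in neotenic axolotls over the shared tissues, called 0 of 20220 genes (0.0%) with edgeR, 554 genes at an unadjusted p below 0.05 and 9 with DESeq2. The median difference of the 1448 genes was -1.46, against -0.12 for all genes, and it was -1.01 without the 5 libraries, where edgeR again called 0 genes. The 1448 genes were chosen by a high neotenic contrast, which is subtracted here. A negative median is therefore expected in part from that choice, which was not made for all genes.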

How the data were processed

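Bulk RNA-seq was measured in 61 axolotl libraries. By the study's methods, total RNA was purified with TRIzol, reverse transcribed, tagmented with a transposase and sequenced in paired-end mode. Per the file headers, the authors made the deposited counts with featureCounts 1.6.0, summing reads over the exons of each gene of annotation AmexG 3.0.0 without using strand, so that overlapping or antisense genes cannot be told apart. STAR is named in the submitters' processing notes. Its version and settings for the bulk libraries are not given in the sources used here. The raw counts of 23251 gene models were used, 13706 of which carry a symbol. Where a symbol had several models, the one with the most counts was taken, and near-identical copies may split reads. RefSeq annotation of another assembly was used for names only and lists 12244 of the models' symbols. Coordinates are those of the deposited files. No sequence of this build was used here.

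Counts were tested with edgeR 4.0.16 in R 4.3.3 (TMM scaling, filterByExpr, glmQLFit, glmQLFTest) on the 32 neotenic libraries with 1 coefficient per tissue. The kidney contrast was kidney minus the mean of the 16 other tissue coefficients. Enriched meant a Benjamini-Hochberg adjusted p below 0.05 with a log2 fold change no lower than 2. Levels are TMM-scaled CPM, and SE values follow from the test statistic. Counting intervals and floors of 3 counts cover counting error only. Kidney totals were 4848013 and 5065518 counts, and totals over all metamorphosed libraries 69278 to 27389476. TMM factors ran from 0.473 to 1.75, and were 1.21 and 1.24 in kidney.

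Genes were named by rule: among enriched genes with a symbol, a mean of at least 10 CPM in kidney and both kidney libraries above every other library, the 20 with the largest log2 fold changes and the 10 with the highest CPM per kb. To these came the 5 depleted genes with the lowest log2 fold changes at a mean of at least 10 CPM over the other tissues, called or extreme members of the kidney lists, called members of the other lists, and the 5 genes most like *Lrp2* and *Umod*. Some genes that meet the rule are not reported here. The members and lists were chosen with earlier results of these data known. The lists of *Slc*, *Hox* and *Atp6* symbols were added by prefix after the files were seen, and supporting genes within lists were picked as examples.

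Alternatives were DESeq2 1.42.0, its size factors, no filter beyond 1 count, a replicate block, the left-out libraries put back, gonad left out, both states in 1 fit, summed gene models and each kidney library left out. The labels say that the replicate number is a batch. The batch difference in kidney correlated with that in 14 other tissues at 0.0644 to 0.205 (median 0.151, above 0.1 in 11), across genes, which are not independent replicates.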

Additional observations from a re-analysis of the deposited data

How the results depend on the processing

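The 1448 enriched genes became 1237 with DESeq2, 1453 with its size factors, 1494 with no filter beyond 1 count, 1460 with both states in the fit, 1360 with stomach 2 and tail 2 put back, 1555 without gonad, 503 at a log2 threshold of 4 and 1046 to 1124 without 1 kidney library. The 177 depleted genes moved most: 392 with DESeq2, 373 without gonad, 111 with stomach 2 and tail 2, 26 at the threshold of 4 and 33 to 59 without 1 kidney library. The 334 genes above every other library became 435 to 529 when 1 kidney library was left out, where fewer values have to exceed the rest. Without 1 library, genes higher and lower than intestine ran from 606 to 848 and 406 to 645, than liver from 765 to 992 and 481 to 831, and than gill from 477 to 715 and 382 to 702. In metamorphosed kidney the 589 enriched genes became 345 to 406 without 1 kidney library and 711 without 5 libraries that carry intestinal genes or few counts. The difference between the states gave 9 genes with DESeq2 and 0 without those 5 libraries, an alternative chosen after seeing the data. Except where a test lost libraries or the threshold itself was changed, the cause was not tested.

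The replicate block, with the batch number of the labels paired across tissues, gave 1467 enriched and 197 depleted genes, 1274 and 914 genes against intestine, 1441 and 1116 against liver, 1091 and 1096 against gill and 657 in metamorphosed kidney, and it changed no call of a named gene. Of 1904 values of 191 named genes under the alternatives, 1827 kept their direction and side of the threshold, 77 kept the direction and no longer passed, and 0 reversed. The number of kidney libraries and the depth of each limit what genes near 3 counts can show.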
